A study of Mus musculus with 4 samples.

Results

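The chromatin around the starts of 8 genes was described in HEK293 cells, an established human cell line of embryonic kidney origin. The genes encode the NF-Y subunits (NFYA, NFYB and NFYC), the zinc finger factor GLIS2, the bZIP factors NFE2, NFE2L1 and NFE2L2, and the kinase MKK7 (MAP2K7). They were chosen by name, as genes of factors whose motifs or signalling the study discusses and their relatives, and a peak counted as theirs if it overlapped the 5 kb on either side of the gene start in GRCh38. The windows held 9 of the 48751 peaks in the deposited list. ATAC-seq marks open chromatin, where the Tn5 transposase can cut and tag the DNA.

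All cells received a plasmid for dCas9 fused to the HaloTag, together with a TRAFTAC at 25 nM, for 6 h. A TRAFTAC is a DNA-RNA hybrid whose DNA carries a factor's binding motif and whose RNA is held by dCas9, and HP14, a PROTAC that binds the HaloTag, then brings in the degradation machinery. TNF-α at 5 ng/mL, which activates NFkB, and HP14 at 25 μM followed for 19 h. All 4 samples were also exposed to DNase, at 200 units/ml over the last 30 min of culture. The 2 groups differed in the DNA, with the NFkB motif in the NFkB TRAFTAC (2 libraries) and a scrambled sequence in the scrambled TRAFTAC (2 libraries). No group without TNF-α is among the samples, so every value here comes from stimulated cells. The peaks were called on the 4 libraries merged, and the list therefore gives no value for a single library or TRAFTAC. It allows no comparison between the TRAFTACs and no replicate error, and a difference in openness at these genes between them was not analysed here. The sample labels name the mouse as organism, but 3163 peaks lie on chromosomes 20, 21 and 22, which the mouse lacks, and coordinates were read as GRCh38, the assembly in the submitters' processing notes. The labelled cell type was not checked against markers, since only the 8 starts were at hand in GRCh38.

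NF-Y is a trimer that binds CCAAT boxes, which are common in promoters. NFYB and NFYC pair through histone-like folds, and NFYA joins the pair and reads the sequence. NFE2, NFE2L1 and NFE2L2 belong to the cap'n'collar bZIP family and bind DNA together with small MAF proteins, at sites that resemble AP-1 sites. GLIS2 binds GC-rich sites through zinc fingers related to those of the GLI factors and is known for its role in the kidney, and MKK7 phosphorylates JNK, the kinase that activates AP-1 after TNF-α.

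Open chromatin was found near all 8 genes, and 7 of the 8 starts lay inside a peak. GLIS2 was the exception, with a peak on each side of its start and none over it. Only 1 listed start per gene was used, and any other start of a gene was not analysed. Of all stretches of the same length on chromosomes 1 to 22 and X, 14.4% held at least 1 peak, and of all single bases, 1.15% lay in a peak. These are shares of the genome and not of gene starts. The share of other gene starts with a peak was not analysed here, so the 8 genes cannot be called unusual among genes. Exactly 1 peak was present in 7 of the windows, and 2.39% of the stretches held 2 or more, as the GLIS2 window did.

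**Figure D1:**
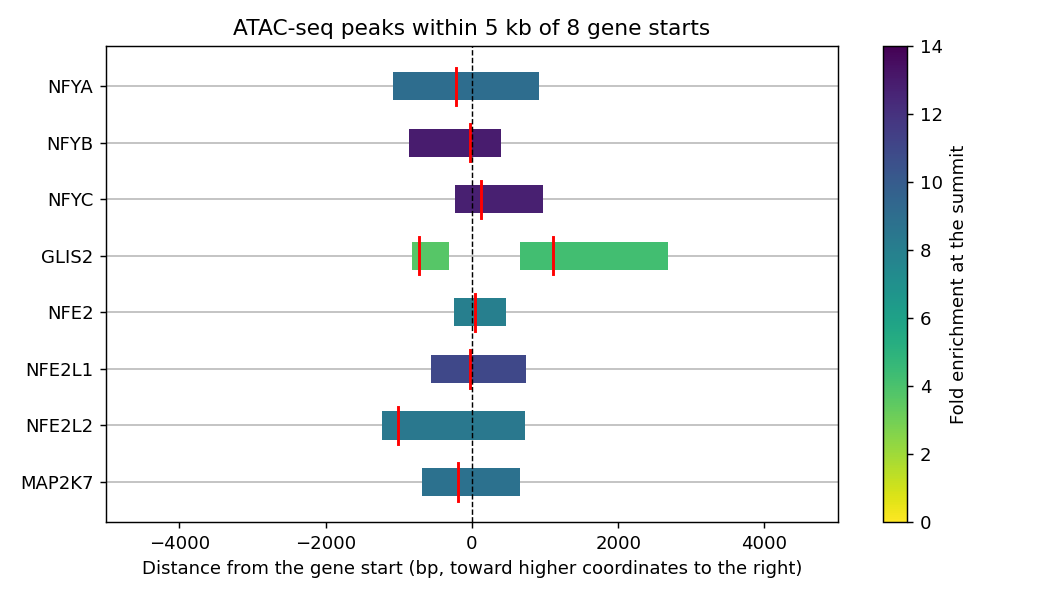
Peaks within 5 kb of the 8 gene starts, 1 row per gene, with the distance from the start in bp on the x axis and higher coordinates to the right. Bars are peaks coloured by their fold enrichment, red ticks are summits and the dashed line is the start. A peak spans the start of 7 genes, whereas the start of GLIS2 lies in a gap of 970 bp.

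For each peak, the width, the fold enrichment of fragments at the summit over the local background (a linear ratio) and the −log10 of the q-value are given as the authors' peak caller wrote them. Positions below and above a start are at lower and higher coordinates. The strand of the genes was not used, so these words do not tell upstream from downstream. The summit pileup, which is the number of fragments that overlap the summit in the 4 libraries together, and the background around it were worked back from the fold and the p-value. No control library is among the samples, so this background can include fragments of the peak itself. It need not be separate from the height and width of the peak. The intervals given are exact 95% Poisson intervals of the pileup. They cover counting error only, and leave out the spread between libraries and any error of the background. Over all peaks, the median was 590 bp for the width, 5.60 for the fold, 23.3 for the −log10 q-value and 56 fragments for the pileup. The 9 peaks had medians of 1305 bp, 8.79, 187 and 309 fragments. All 9 lay above the median of the list in −log10 q-value, and 6 lay in its top 25%. In width, 7 of the 9 lay in the top 25%, but in fold only 3 did. The list was not limited to peaks at gene starts, and a comparison with peaks at other gene starts was not run. These ranks therefore do not show whether the 9 peaks are wide or strong for peaks near a gene start. The median width rests on the window, and with 10 kb on either side, which adds 6 peaks, it was 805 bp.

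Among the NF-Y genes, NFYA had the most fragments and NFYB and NFYC the higher folds. The NFYA peak (chromosome 6, 41071891 to 41073897) was 2007 bp wide, from 1083 bp below the start to 923 bp above it. Its fold was 9.06 (8.43 to 9.73) and its −log10 q-value 434. The summit stacked 757 fragments (704 to 813) over a local background of 82.7, which is 13.1 times the lowest background in the list, 6.32 fragments. In pileup NFYA exceeded 99.3% of all peaks and in fold 73.7%.

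The NFYB peak (chromosome 12, 104137387 to 104138644) was 1258 bp wide, with its summit 28 bp below the start. It had a fold of 12.9 (11.4 to 14.6) and a −log10 q-value of 187, with 257 fragments (227 to 290) over a background of 18.9. The NFYC peak (chromosome 1, 40691458 to 40692659) had a similar width, 1202 bp, and its summit lay 129 bp above the start. Its fold was 12.8 (11.4 to 14.2), its −log10 q-value 236 and its pileup 329 fragments (294 to 367) over a background of 24.8. The folds of NFYB and NFYC, the histone-fold pair, thus had overlapping intervals, and both intervals lay above that of NFYA. The order by pileup was another. NFYA had 2.95 times the fragments of NFYB (exact 95% interval 2.55 to 3.41) and 2.30 times those of NFYC (2.02 to 2.63), and NFYC 1.28 times those of NFYB (1.08 to 1.51). Since the fold is the pileup over the background, the higher pileup and lower fold of NFYA together amount to a higher background, the highest among the 9 peaks.

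The bZIP genes spanned the range from one of the strongest peaks of the list to one (NFE2) that exceeded 67.5% of it in −log10 q-value. NFE2L1 encodes a factor known for inducing proteasome genes when the proteasome is impaired. Its peak (chromosome 17, 48047768 to 48049072) was 1305 bp wide and had its summit 29 bp below the start. It had the highest −log10 q-value of the 9, 516, which exceeded 99.3% of all peaks, with a fold of 11.0 (10.2 to 11.8). The summit stacked 795 fragments (741 to 852) over a background of 71.5.

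NFE2L2 encodes NRF2, the factor that induces antioxidant genes and is held in check by KEAP1. Its peak (chromosome 2, 177263503 to 177265449) was 1947 bp wide, with a fold of 8.37 (7.47 to 9.36), a −log10 q-value of 169 and 309 fragments (276 to 345) over a background of 36.0. It spanned the start, but its summit lay 1015 bp below it and 209 bp from the lower edge of the peak. Of the 7 peaks over a start, this was the only one with its summit more than 250 bp away. Only the summit is given for each peak, so the height at the NFE2L2 start itself is not known from the list.

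NFE2 is best known as a factor of erythroid cells and megakaryocytes. Its start lay in a peak in these kidney-derived cells too (chromosome 12, 54300776 to 54301476). The peak was 701 bp wide, with a fold of 8.03 (6.52 to 9.79), a −log10 q-value of 52.8 and its summit 37 bp above the start. Its pileup of 96 fragments (77.8 to 117) and its background of 11.1 were the lowest of the 9. The fold intervals of NFE2 and NFE2L2 overlapped, whereas in pileup NFE2L2 had 3.22 times the fragments of NFE2 (2.55 to 4.09) and NFE2L1 had 8.28 times (6.69 to 10.3). A peak marks accessible DNA and does not show that the gene was transcribed. Genes that start near NFE2 were not analysed, so the peak need not be that of NFE2 alone.

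MAP2K7 encodes MKK7, which lies between the TNF receptor and JNK. Its peak (chromosome 19, 7903166 to 7904496) was 1331 bp wide and almost centred on the start, with its summit 190 bp below it. The fold was 8.79 (7.92 to 9.74) and the −log10 q-value 207, with 366 fragments (329 to 405) over a background of 40.7. In fold it did not differ from NFYA, NFE2L2 or NFE2 beyond the counting intervals.

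GLIS2 had the lowest folds of the 9 peaks. The peak below its start (chromosome 16, 4313943 to 4314446) was 504 bp wide and ended 315 bp below the start. It had a fold of 3.71 (3.10 to 4.40), a −log10 q-value of 32.5 and 128 fragments (107 to 152) over a background of 33.8. The peak above the start (4315417 to 4317447) began 656 bp above it and was the widest of the 9, 2031 bp. Its fold was 4.26 (3.61 to 4.99), its −log10 q-value 45.0 and its pileup 150 fragments (127 to 176) over a background of 34.5. The fold intervals of the GLIS2 peaks overlapped each other and lay below those of the other 7. In pileup, the lower GLIS2 peak overlapped with NFE2, and the upper one lay above NFE2. With the fold fixed by pileup and background, the lower fold of the lower GLIS2 peak at a pileup near that of NFE2 is the same fact as its background, which was 3.05 times that at NFE2.

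**Figure D2:**
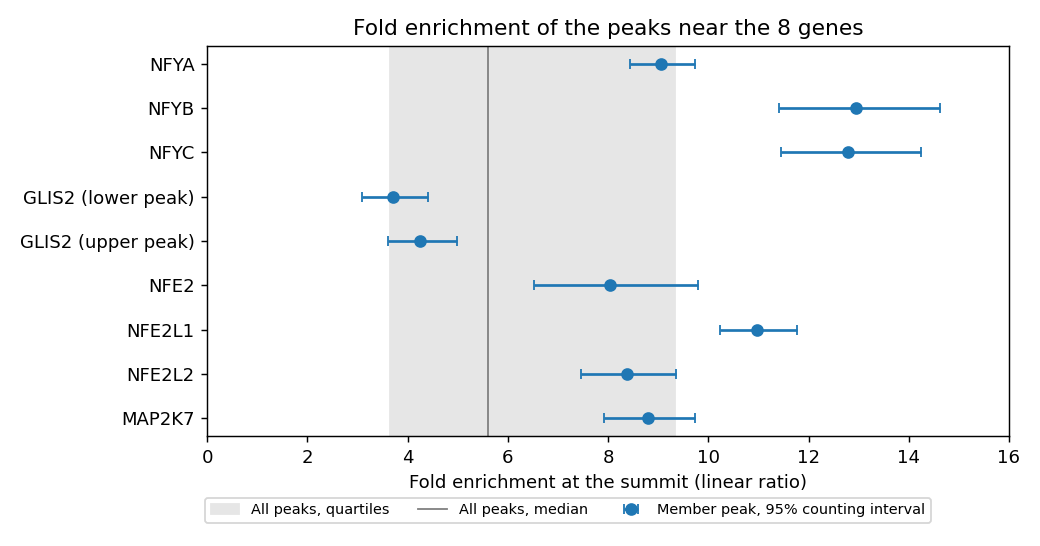
Fold enrichment at the summit (linear ratio, x axis) of the 9 peaks, with exact 95% Poisson intervals of the pileup, against the quartiles (3.65 and 9.33, grey band) and the median (5.60, line) of all peaks. NFYB, NFYC and NFE2L1 lie above the band, and both GLIS2 peaks lie below the median.

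Ordered by fold, the peaks fell into 3 steps. NFYB, NFYC and NFE2L1 came first, with intervals that overlapped between neighbours, and NFYA followed below NFE2L1 without overlap. From NFYA through MAP2K7 and NFE2L2 to NFE2, each neighbour overlapped with the next. The GLIS2 peaks came last, again without overlap. By pileup the steps were others, with NFE2L1 and NFYA first, MAP2K7, NFYC, NFE2L2 and NFYB next, and the GLIS2 peaks and NFE2 last. These steps rest on overlap between neighbours only, and peaks within a step can differ. In pileup, the interval of NFYB lay below those of NFYC and MAP2K7, and that of NFE2 below that of the upper GLIS2 peak. Divided evenly over the 4 libraries, the pileups correspond to 24.0 fragments per library at NFE2 and 199 at NFE2L1. Counting error alone would give a standard deviation of 20.4% and 7.09% on such numbers, so that a change in 1 library would be measured least precisely at NFE2.

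**Figure D3:**
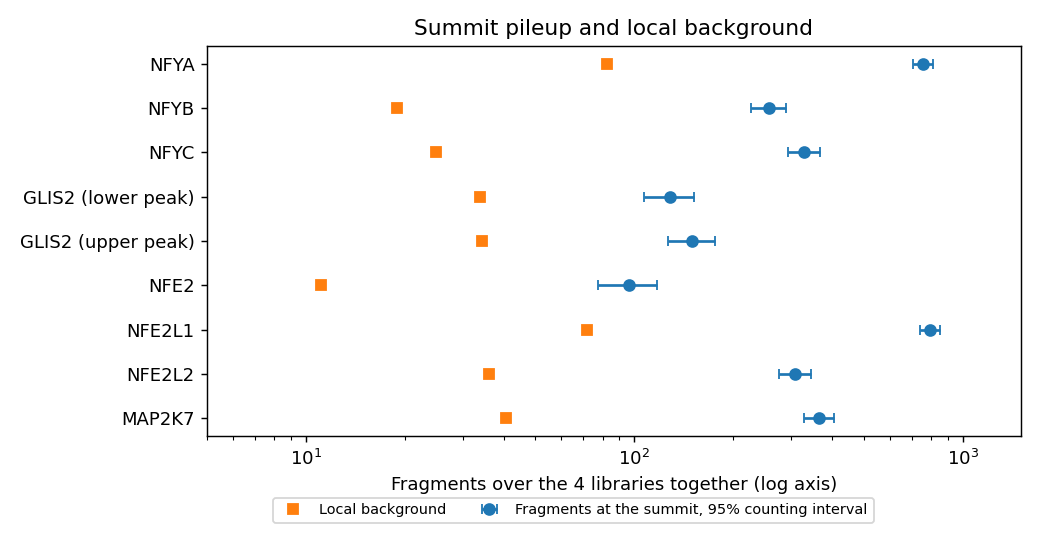
Fragments at the summit (circles, with exact 95% Poisson intervals) and local background (squares) for the 9 peaks, over the 4 libraries together, on a log axis. NFE2L1 and NFYA stand at 795 and 757 fragments and also have the highest backgrounds, 71.5 and 82.7.

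Width rises with the −log10 q-value across the list, so each peak was also set beside the peaks whose −log10 q-value was within a factor of 1.2 of its own. At like −log10 q-value, 3 of the 9 were among the widest. The upper GLIS2 peak was wider than 97.6% of 3493 such peaks, whose median was 701 bp, NFYA was wider than 96.9% of 945, and NFE2L2 was wider than 94.96% of 2877. The remaining 6 lay between 31.4% (the lower GLIS2 peak) and 74.5% (MAP2K7). Peaks of at least 2000 bp made up 1.80% of the list, and 2 of the 9 were of this size. In fold, 5 of the 9 were among the lowest 10% at like −log10 q-value, namely NFYA (4.97% of such peaks were lower), both GLIS2 peaks (2.94% and 4.01%), NFE2L2 (8.55%) and MAP2K7 (8.72%). The local background was in the top 25% of the list for 8 of the 9, all but NFE2. At like −log10 q-value, a lower fold comes with a higher pileup and a higher background by calculation. The widths, folds and backgrounds are therefore not separate results, and NFYA, NFE2L2 and the upper GLIS2 peak were both wide and low in fold. The peaks of like −log10 q-value were not limited to gene starts either. These values describe 9 chosen peaks, and no test was made.

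**Figure D4:**
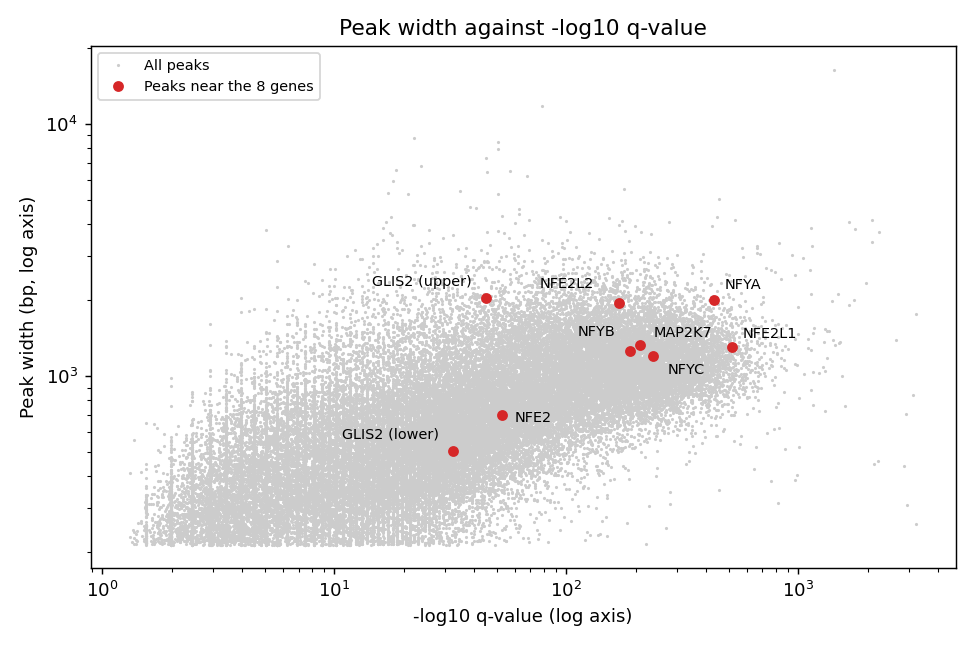
Peak width (bp) against the −log10 q-value for all 48751 peaks (grey) and the 9 peaks near the 8 genes (red), both axes logarithmic. The upper GLIS2 peak (2031 bp), NFE2L2 (1947 bp) and NFYA (2007 bp) lie in the upper part of the cloud, below its widest peaks. The other 6 lie nearer its middle.

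According to the methods, consensus peaks were resized to 300 bp before fragments were counted for motif accessibility. Applied to the deposited peaks, a central window of 300 bp would hold the summit in 3 of the 9 (NFYA, NFE2 and NFE2L1), against 74.8% of all peaks. The list has a median width of 590 bp, and narrower peaks held their summit in such a window more often. Among peaks whose width was within a factor of 1.2 of each member's, the share ranged from 15.5% for the upper GLIS2 peak to 80.4% for the lower one. Averaged over the 9, it was 43.3%, which corresponds to 3.89 of 9, so the count of 3 was close to that of peaks of like width. The summit was 764 bp from the centre at NFE2L2 and 568 bp at the upper GLIS2 peak, and between 154.5 and 240.5 bp at NFYB, NFYC, MAP2K7 and the lower GLIS2 peak. Such a window would span the start of 4 genes, NFYA, NFE2, NFE2L1 and MAP2K7. It would cover between 14.8% (upper GLIS2 peak) and 59.5% (lower GLIS2 peak) of a peak's width. The consensus peaks themselves may be narrower or wider and were not analysed here.

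Just outside the windows, between 5 and 10 kb from the start, lay 6 further peaks near 4 of the genes. NFE2 had one on either side, at 5942 bp below (fold 3.75) and 6065 bp above (fold 7.83), the latter close to the fold at its start. At GLIS2, a peak 6619 bp below the start had a fold of 8.89 and a −log10 q-value of 98.9, both higher than those of the peaks inside the window, and another lay 9199 bp above (fold 2.70). NFE2L1 had a peak 7269 bp above its start (fold 3.97) and NFE2L2 one 9599 bp below (fold 7.61). Which genes these peaks belong to was not analysed here. Around NFYA, by contrast, the nearest peaks were 32327 bp below and 107727 bp above its own.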

How the data were processed

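Each ATAC-seq library came from 50000 HEK293 cells, with 8 PCR cycles and at least 20000000 read pairs. Per the labels and the methods, the authors used Trimmomatic, Bowtie2, Picard and MACS2 (paired-end mode, GRCh38.p10). The deposited list, called on the merged libraries, gives positions, a score, the fold enrichment (a linear ratio) and the −log10 p-value and q-value of each peak. The library totals are unknown from it. Columns of single samples number 0.

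Here, peaks were joined to the 8 stated gene starts in 1-based coordinates in Python 3.11.15 (pandas 2.3.3, scipy 1.17.1, numpy 2.4.6). Pileup and background were recovered by searching for the whole number whose Poisson tail gives the listed p-value (pseudocount of 1 in the fold, misfit at most 0.001). This succeeded for 48727 peaks, including all 9, and was tested on simulated data. The simulation used the same formula, so it did not check the formula itself. Its backgrounds did not reach those of NFYA and NFE2L1. No test between groups was possible.

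Genes and lists were chosen with earlier results of these data known. The rule for named genes was all 8 members, genes starting within 5 kb of them, and the extremes of lists of relatives. The lists of relatives, cell type genes, neighbouring genes, promoter motifs and sequences were not analysed, because no annotation or sequence of GRCh38 was used here. The comparison with peaks at other gene starts was not run for the same reason. The comparisons at like −log10 q-value and like width, the 300 bp window and the pileup ratios were chosen after seeing the data.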

Additional observations from a re-analysis of the deposited data

How the results depend on the processing

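Alternatives to the 5 kb window, to the full list and to counting any overlap gave 18 values. Of these, 17 stayed within 1.5 times the reported count or within a range set around the reported median. That range is the one of the 9 peaks without the lowest and highest value (4.26 to 12.8 for the fold, 701 to 2007 bp for the width). It is a yardstick only, since 9 peaks chosen by name are not a sample of a population. The exception was the number of peaks, which rose from 9 to 15 with 10 kb on either side, because this window takes in the 6 peaks beyond 5 kb. With it, the median width was 805 bp and the median fold 8.03. The width of 805 bp, although inside the wide range set for the median, is more than 1.5 times below the reported 1305 bp. A window of 1 kb, a minimum of 5 in −log10 q-value, and counting by summit left the 9 peaks and 8 genes as they were. The lowest −log10 q-value of the 9 was 32.5, and every summit lay within 1103 bp of its start. Every peak also reached to within 656 bp of its start. The 1 kb window, the minimum and the count by summit therefore could not move any value. Only the window of 10 kb and the count within 500 bp could. Counting peaks within 500 bp of the start raised the genes with a peak there from 7 to 8, by the lower GLIS2 peak. The width at like −log10 q-value was repeated with factors of 1.1 and 1.5, chosen after seeing the data, and all 18 values stayed within the exact binomial interval of the first. The bands lie inside one another and share peaks, so this agreement is partly built in and shows little. Starts from a reference annotation were not run, for want of one in GRCh38. Replicates could not be left out in turn, as nothing in the list belongs to 1 library. No paired analysis was possible because replicate numbers are lost in a pooled list. Depth limits the precision most at NFE2, with 96 fragments.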

Other observations

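Beyond the windows, the surroundings of the 8 genes differed in how many peaks they held. Within 500 kb on either side, the other peaks numbered from 21 around NFE2L2 to 78 around MAP2K7, and all 8 genes had more than the mean of their chromosome gives for that length. The excess was largest at NFE2, with 72 peaks against 16.1, and at GLIS2, with 68 against 21.0. At MAP2K7 the 78 peaks stood against 54.5, since chromosome 19 had the highest mean of the chromosomes concerned, 54.5 peaks per Mb. Within 50 kb, 7 of the 8 genes exceeded the mean, with 12 other peaks at GLIS2 against 2.10 and 9 at NFE2 against 1.61. NFYB did not, with 1 other peak against 1.61. Chromosome means include stretches without genes, and neighbouring peaks are not independent, so these are descriptions without a test. How many other gene starts or stretches exceed the same means was not analysed, so these counts do not set the 8 genes apart. NFYA, with 757 fragments at its summit, had 2 other peaks within 50 kb against 1.85, and so barely exceeded the mean. NFE2L1, with 795 fragments, had 7 against 3.80. MAP2K7, with 366 fragments, had 12 against 5.45, and NFE2, with 96 fragments, had the 9 given.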
